A study of Caenorhabditis elegans with 2 samples.

Results

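The proteasome and CDC-48 genes of Caenorhabditis elegans were examined for binding of the nuclear hormone receptor NHR-237 near their starts. Members were the protein-coding genes whose Ensembl symbol begins with pas-, pbs-, rpn-, rpt-, cdc-48 or ufd-, which gave 39 of 19973 genes on the 6 nuclear chromosomes. Of these, 14 encode the core particle (7 pas and 7 pbs genes), 19 the regulatory particle (13 rpn and 6 rpt genes), and 6 belong to the CDC-48 group (3 cdc-48 and 3 ufd genes). Binding had been mapped by chromatin immunoprecipitation and sequencing in whole L2 larvae of mixed sex and unstated age. The strain, OP228, carries unc-119(ed3) III and the transgene wgIs228, and the labels name eGFP-nhr-237 as the target and nhr-237 as the antibody. No source used here gives the promoter or cells that express the transgene. Both libraries formed 1 group, as biological replicates 1 and 2 from separate worm samples of that strain, and there was no second genotype or treatment to compare.

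The proteasome degrades proteins that carry chains of ubiquitin. Its barrel-shaped core particle is built from rings of alpha subunits (pas genes), which gate the entrance, and rings of beta subunits (pbs genes), which hold the proteolytic sites. The regulatory particle caps the barrel. Its RPT subunits are ATPases that unfold substrates, and its RPN subunits bind ubiquitin, hold the complex together and remove the chain. CDC-48, known as p97 in mammals, is a ring ATPase that pulls ubiquitinated proteins out of membranes and complexes and passes them to the proteasome, with UFD proteins among its cofactors.

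Of the 4 lists of regions used, the IDR list is the strictest. It holds 350 regions kept by the authors' irreproducible discovery rate threshold, a procedure meant to keep regions that are ranked alike. The pooled list held 6542 regions called on both libraries together, which the authors label as peaks and background. Each replicate list held 30000 regions that also reach into background. All 350 IDR regions were the highest pooled regions by signal, so the IDR and pooled lists are not separate evidence. Signal is the authors' enrichment over a control, on a scale of its own in each list, and rank 1 is the highest signal in a list. The replicates did not rank every IDR region alike, as that near pas-5 ranked 83 in replicate 1 and 9905 in replicate 2. A gene was near a region when the summit lay within 1000 bp of the 5′ end of the gene model. Distances are from that start to the summit, and negative ones are upstream. Each list has 1 value per region, so values carry no SD. The depth of the libraries is unknown, and whether a region reflects the tagged receptor or chromatin open to any factor was not tested.

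The windows of cdc-48.1, rpn-3 and rpn-11 are shown because they hold the strongest regions, rpn-9 because it shares a run of bases with cdc-48.1, and rpn-2 and cdc-48.2 as a scaffold gene and the cdc-48.1 paralog for contrast. Each is 121 bases of the RefSeq genome (WBcel235, the same as ce11) centred on the pooled summit, except for rpn-11, whose summit fell in the 5′ UTR, so that the 120 bases before its start are shown. All read 5′ to 3′ in the direction of the gene. Capitals mark matches to the sequence motifs described further on, and windows without capitals held none.
cdc-48.1 (chrII:10563526-10563646, minus strand): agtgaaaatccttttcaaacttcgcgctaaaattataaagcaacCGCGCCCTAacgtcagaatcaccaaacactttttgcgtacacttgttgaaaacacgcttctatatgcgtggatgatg
rpn-3 (chrIII:8447120-8447240, plus strand): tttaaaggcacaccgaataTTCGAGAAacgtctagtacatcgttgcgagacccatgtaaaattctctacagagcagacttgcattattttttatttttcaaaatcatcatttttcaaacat
rpn-11 (chrII:4044547-4044666, minus strand): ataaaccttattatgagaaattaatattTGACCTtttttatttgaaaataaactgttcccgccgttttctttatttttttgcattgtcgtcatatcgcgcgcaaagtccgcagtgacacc
rpn-9 (chrII:11239139-11239259, minus strand): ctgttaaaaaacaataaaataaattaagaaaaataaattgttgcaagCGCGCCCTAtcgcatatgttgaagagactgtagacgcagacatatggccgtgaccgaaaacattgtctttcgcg
rpn-2 (chrIII:6198719-6198839, plus strand): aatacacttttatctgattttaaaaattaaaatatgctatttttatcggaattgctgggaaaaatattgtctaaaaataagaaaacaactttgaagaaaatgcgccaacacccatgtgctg
cdc-48.2 (chrII:8137531-8137651, plus strand): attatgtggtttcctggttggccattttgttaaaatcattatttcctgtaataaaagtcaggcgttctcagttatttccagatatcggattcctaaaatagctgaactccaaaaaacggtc

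At the level of the whole group, 4 of 39 members (10.3%) were near an IDR region, beside 1.72% of all protein-coding genes. These were cdc-48.1, rpn-3, rpn-11 and pas-4. In the pooled list 15 members (38.5%) had a region, beside 15.8% of all genes. In 7 members (17.9%) the pooled region ranked within the first 1000, as it did in 4.06% of all genes. By the authors' −log10 q-value, where larger is a stronger call, the pooled regions at the 4 IDR members and rpn-2 had at least 1.584. The other pooled regions at members had 1.076 (rpn-9) or less, down to 0.028 at pbs-7, so the pooled counts include weak calls. By class, the IDR list reached 1 of 14 core particle genes, 2 of 19 regulatory particle genes and 1 of 6 CDC-48 genes. The pooled list reached 5, 8 and 2 of them, or 35.7%, 42.1% and 33.3%, and these shares lay close together. The difference between classes was not tested.

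**Figure D1:**
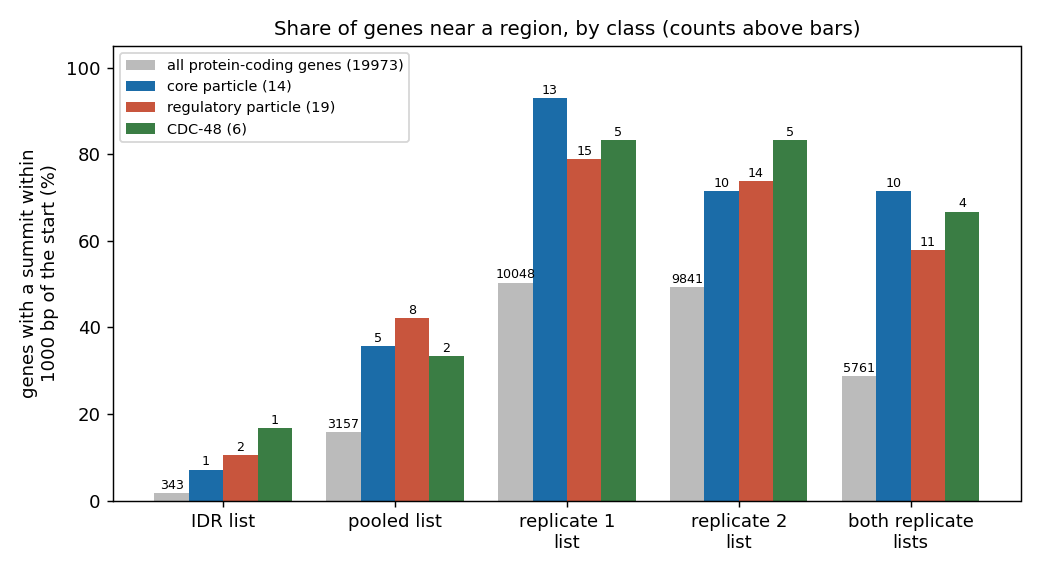
Share of genes with a summit within 1000 bp of the start (y axis, percent) in each region list, for all protein-coding genes and the 3 classes, with the number of genes above each bar. The 3 classes stand above all genes in every list, and in the pooled list they lie between 33.3% and 42.1%.

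Among CDC-48 genes, cdc-48.1, which encodes a worm p97, had the highest region of any member. The region spanned chromosome II 10563398 to 10563773 and its summit lay in intergenic sequence at −179 bp. The signal was 173.9 in the pooled list, 114.7 in replicate 1 and 62.9 in replicate 2, with ranks of 22, 22 and 20. Both replicates thus placed it at almost the same rank, and the gene had the sole protein-coding start in reach of it. The nearest small RNA gene, the snoRNA C06A1.9, was 522 bp away.

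The paralog cdc-48.2, which encodes the other worm p97, differed from cdc-48.1. Its pooled region (signal 23.9, rank 2191) lay at −905 bp, closer to the start of ctns-1 than to its own. Replicate 1 had a region there (signal 18.9, rank 1523), and replicate 2 had none within 1000 bp of the start. The third gene, cdc-48.3, an AAA ATPase outside the p97 pair, had no pooled region within reach, and the highest replicate regions ranked 20367 in replicate 1 and 4960 in replicate 2, on opposite sides of the start.

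None of the 3 ufd genes was near a pooled region, a count too small to set against the 15.8% of all genes. For ufd-1, whose product pairs with NPL-4 to bring substrates to CDC-48, the replicate ranks were 8165 and 21358, and for the chain-extending ubiquitin ligase gene ufd-2 they were 17660 and 20369. The CDC-48 cofactor gene ufd-3 was split between the replicates. Replicate 2 had a region of signal 18.2 at rank 370, at −261 bp, while replicate 1 and the pooled list had none within 1000 bp. This gene was singled out after its values were seen.

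In the regulatory particle, the pooled list reached 7 of 13 RPN genes (53.8%) and 1 of 6 RPT genes (16.7%), beside the 15.8% of all genes. In the replicate 1 list the shares were 10 of 13 RPN genes (76.9%) and 5 of 6 RPT genes (83.3%), beside 50.3% of all genes. The order of RPN and RPT genes thus differed between these lists, on few genes, and was not tested. In replicate 2 the shares were 76.9% and 66.7%, beside 49.3%, and for a region in both replicate lists 61.5% and 50%, beside 28.8%. The IDR list reached 2 RPN genes and 0 RPT genes. The RPN genes fall into the lid, which removes the ubiquitin chain and docks on the rest, and the scaffold and ubiquitin receptor subunits. Of 9 lid genes (rpn-3, rpn-5, rpn-6.1, rpn-6.2, rpn-7, rpn-8, rpn-9, rpn-11 and rpn-12), 6 had a pooled region. Of the scaffold genes rpn-1 and rpn-2 and the receptor genes rpn-10 and rpn-13, 1 had one. The division into lid and other subunits was made after the values were seen.

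The lid gene rpn-3 had the second highest region of the group, at chromosome III 8446992 to 8447367. The signal was 79.5 in the pooled list, 51.1 in replicate 1 and 26.6 in replicate 2, at ranks 91, 94 and 115. The summit was intergenic, at −173 bp, in a promoter shared with hsp-110, an Hsp110 chaperone gene on the opposite strand whose start is 444 bp from that of rpn-3. The closest start was that of rpn-3.

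At rpn-11, which encodes the deubiquitinating enzyme of the lid, the region covered chromosome II 4044341 to 4044716 and the summit lay 17 bp inside the gene, in its 5′ UTR. Signals were 54.8 in the pooled list, 29.5 in replicate 1 and 26.1 in replicate 2, at ranks 196, 337 and 121. The gene follows K07D4.2 on the same strand after a gap of 225 bp, and the start of K07D4.2 was also in reach of the summit. Here replicate 2 ranked the region higher than replicate 1, the reverse of the order at pas-4.

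Next in signal was rpn-2, for a scaffold subunit, with a pooled signal of 39.3 at rank 403, just below the IDR list. Its region had a signal of 22.4 in replicate 1 (rank 763) and 19.2 in replicate 2 (rank 296), with the pooled summit at −405 bp, and C23G10.7 had the closer start. Both replicates had this region high in their lists, unlike at the lid genes that followed. The region at rpn-9 (pooled signal 35.0, rank 531) ranked 790 in replicate 1 and 15658 in replicate 2, with the pooled summit at −280 bp. At rpn-7 (pooled signal 30.4, rank 827) it ranked 174 in replicate 2, with no replicate 1 region within 150 bp of the pooled summit. That summit was at −462 bp, in the 5′ UTR of F49C12.9, whose start was 46 bp away.

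The remaining regulatory genes with a pooled region were weaker. The lid gene rpn-5 had a signal of 24.4 at rank 1995, with a summit at −31 bp and scc-1, a cohesin gene, on the other strand. Its region ranked 9267 in replicate 1 and 1550 in replicate 2. The lid gene rpn-8 had a signal of 23.5 at rank 2385, with a summit in a coding exon 450 bp inside the gene and the snoRNA R12E2.17 at 228 bp. Replicate 1 had a region there (rank 1522), and replicate 2 had none within 150 bp of that summit. The only RPT gene, rpt-6, had a signal of 22.2 at rank 3062 and ranked 670 in replicate 2, with no replicate 1 region within 150 bp of the pooled summit at −319 bp. Replicate 1 had a region somewhat further off, at −155 bp (rank 4964), where replicate 2 had a lower one (rank 14444). Of the RPT genes without a pooled region, rpt-4 was highest by its mean rank over both replicates (5339 in replicate 1 and 11397 in replicate 2). The gene rpt-3 ranked higher than rpt-4 in replicate 2.

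In the core particle, pas-4 was the single gene near an IDR region, a place it did not hold among as many highest regions of either replicate alone. Its alpha subunit gene lies on chromosome I, with the region at 8728374 to 8728749 and the summit at −75 bp. The signal was 44.2 in the pooled list, 29.0 in replicate 1 and 17.03 in replicate 2, at ranks 324, 352 and 469. The rank places it near the end of the IDR list, and the opposite-strand start of rpb-3, an RNA polymerase II subunit gene, was within reach of the summit.

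The other core particle genes with a pooled region had lower signals. The alpha subunit gene pas-3 had 26.9 at rank 1288, at −548 bp and closer to use-1, with replicate ranks of 980 and 19553. The beta subunit genes pbs-1 (24.3, rank 2030), pbs-3 (24.2, rank 2082) and pbs-7 (19.6, rank 5452) completed the set. For pbs-1 the start of K08D12.3 was closer to the summit, and for pbs-7 that of F39H11.1. Replicate 2 had no region within 150 bp of the pooled summit of pbs-1 or of pbs-7. The summit at pbs-3 was at −162 bp, in a 3′ UTR.

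**Figure D2:**
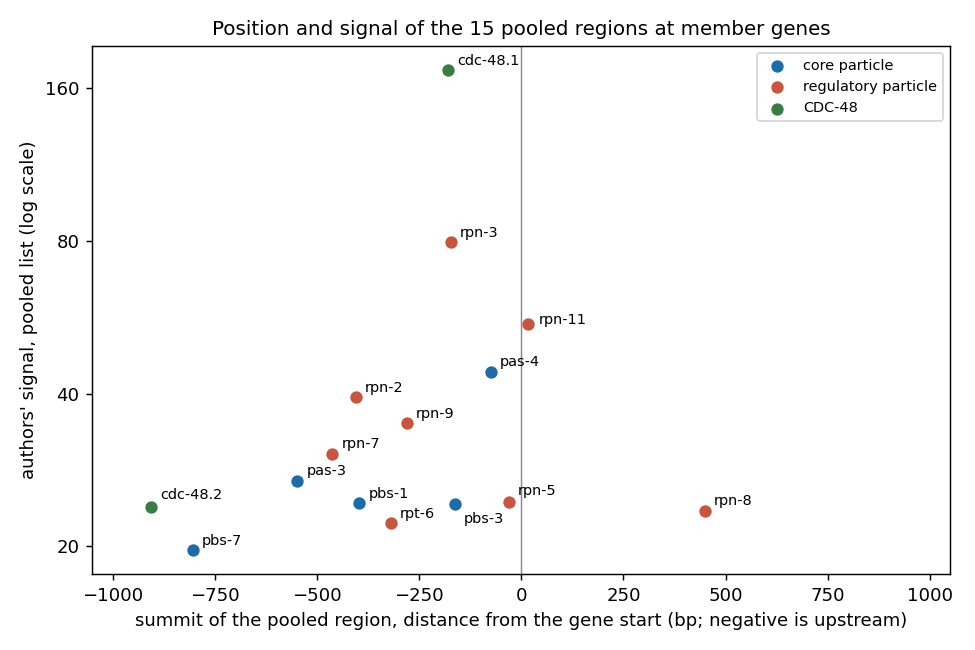
Position and signal of the pooled regions at the 15 members that had one. The x axis gives the distance of the summit from the gene start in bp, negative upstream, and the y axis the authors' signal in the pooled list on a log scale. The 4 IDR members lie between −179 and 17 bp, and cdc-48.1 stands highest at 173.9.

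Regions just beyond the limit concerned core particle genes in the IDR list. The summit nearest to pas-5, an alpha subunit gene, lay at −1004 bp, just too far to count. That region had a signal of 60.7 at pooled rank 162, with rank 83 in replicate 1 and 9905 in replicate 2, and its summit fell on the snoRNA gene F25H2.15. At pbs-2, a beta subunit gene, an IDR summit of signal 103.8 (rank 45) lay 1410 bp downstream of the start and 75 bp from the start of tba-2, an alpha-tubulin gene. Just inside the limit was cdc-48.2, at −905 bp. The pas-5 region therefore counts or not by a few base pairs, and the pbs-2 region is nearer to another gene.

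**Figure D3:**
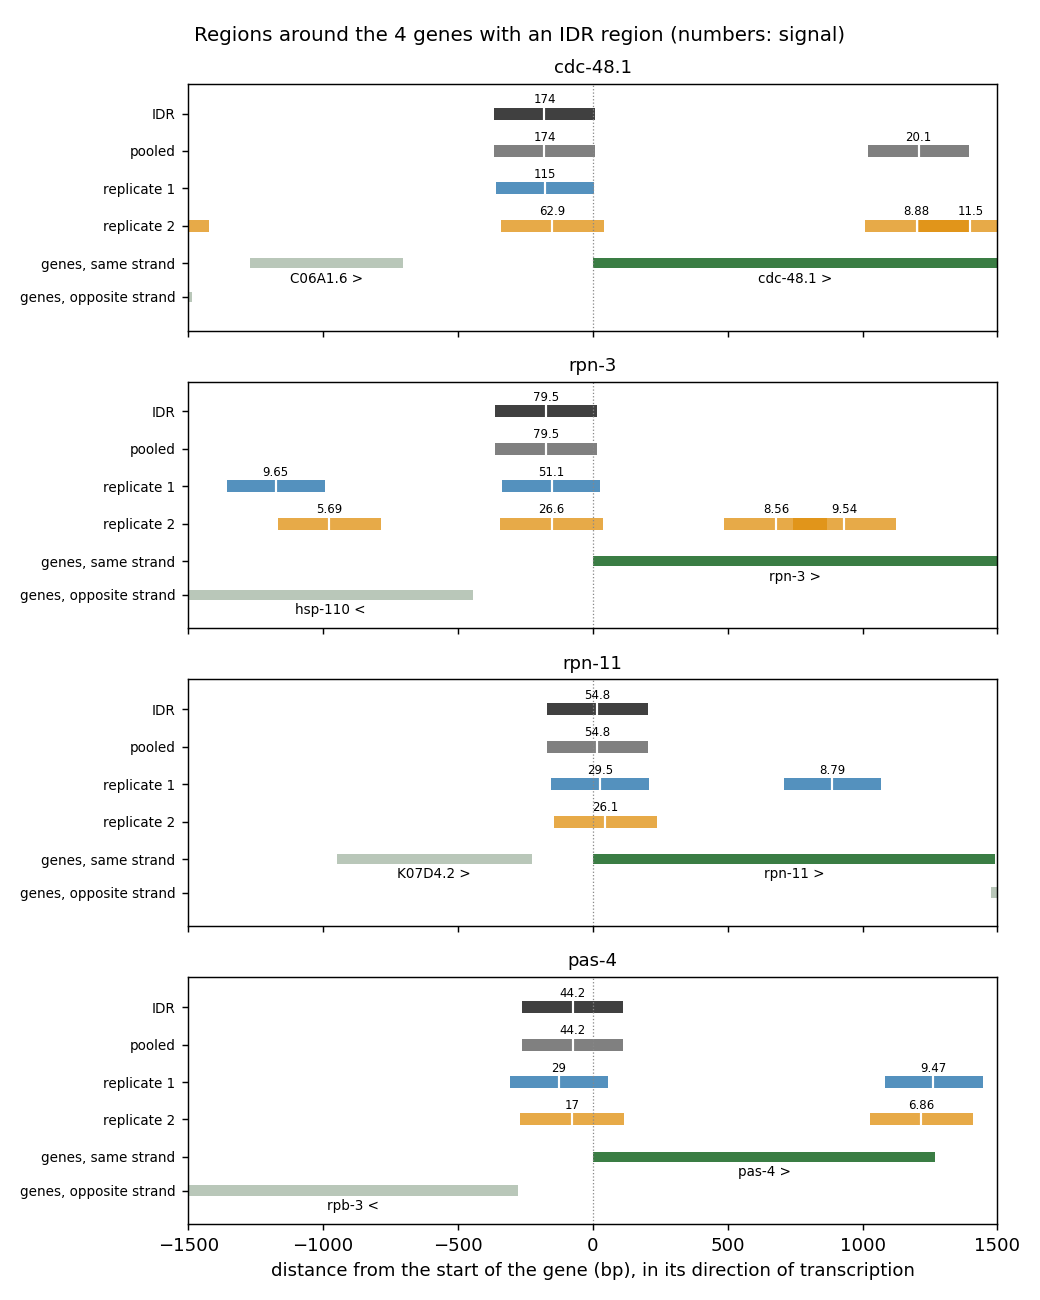
Regions around the starts of cdc-48.1, rpn-3, rpn-11 and pas-4, drawn to scale in the direction of each gene, with distance from the start in bp on the x axis. Bars are regions of the 4 lists, white ticks are summits, numbers are signals and bars at the bottom of each panel are genes. In each panel the regions of all 4 lists overlap at the start or just upstream of it.

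Pooled regions at members lay mostly upstream, as they did for genes in general. In 13 of 15 the summit was upstream of the member's start, and among all 3157 genes with a pooled region this held for 66.7%. By annotation 9 summits were intergenic, 2 in a 5′ UTR, 2 in a coding exon, 1 in a 3′ UTR and 1 in an intron. In 9 of the 15 the member had the closest start, and in 12 a further protein-coding gene began in reach of the summit, so that a region could belong to either gene.

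The layout of the genes differed from that of the genome. An opposite-strand start lay within 1000 bp upstream of 22 of 39 members (56.4%), beside 17.7% of all protein-coding genes. Of those 22, 10 had a pooled region (45.5%), beside 24.2% of all genes with that layout. A same-strand gene ended within 500 bp upstream of 10 members (25.6%, beside 19.6% of all genes), as in the operons of this organism. Of these 10, pbs-3 and rpn-11 had a pooled region, a share of 20% beside 16.4% of all genes with that layout, so here members lay near the general share. Of the 8 members with neither layout, 3 had one (37.5%, beside 13.3% of all such genes), among them cdc-48.1. The gene rpn-6.2 had both layouts. The part of layout in the result was not tested.

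By chromosome, 11 members were on I, 11 on II, 8 on III, 4 on IV and 5 on V, with none on X, which carries 13.7% of all protein-coding genes. Chromosome II held 6 of the members near a pooled region, including cdc-48.1 and rpn-11, and chromosome V held none of its 5. Of all genes on II, 13.8% were near a pooled region, and on V 13%. The members on V are pas-1, pas-2, pas-6, rpt-1 and rpt-2. Of all genes on X, 14.5% were near a pooled region.

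In the relaxed replicate lists most members had a region, as many genes did. In replicate 1 there were 33 (84.6%, beside 50.3% of all genes) and in replicate 2 there were 29 (74.4%, beside 49.3%). A region in each replicate list was found for 25 members (64.1%, beside 28.8%). By class these were 10 of 14 core particle, 11 of 19 regulatory particle and 4 of 6 CDC-48 genes. Replicate 1 alone had a region at 8 members and replicate 2 alone at 4, namely rpn-1, rpn-6.2, rpt-2 and ufd-3. Only pas-7, an alpha subunit gene, and rpn-10, a ubiquitin receptor gene, had none in either list.

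Apart from pas-5 and ufd-3, members without a pooled region had regions no higher than rank 4304 in either replicate list. Of the core particle genes, pas-1 ranked 4304 and 24018 in replicates 1 and 2, pas-2 ranked 6728 and 18478, pbs-5 ranked 23913 and 13326, and pbs-6 ranked 23740 and 14662. In replicate 1 alone, pas-6 ranked 14704, pbs-2 ranked 4854 and pbs-4 ranked 6911. At pas-5 the highest region ranked 83 in replicate 1, at −994 bp, and 19052 in replicate 2. Of the regulatory particle genes, rpn-13 ranked 18154 and 16741, and rpt-3 ranked 12716 and 5586. The genes found in replicate 1 alone, rpn-6.1, rpn-12, rpt-1 and rpt-5, ranked between 22543 and 28927 there, and rpn-1, rpn-6.2 and rpt-2, found in replicate 2 alone, ranked between 4668 and 14143.

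Presence in both lists was not the same as agreement on a place. In 11 of the 25 members the highest regions of the replicates had summits within 150 bp of each other, beside 32.3% of the 5761 genes with a region in both lists. The 11 were pas-1, pas-3, pas-4, pbs-6, rpn-2, rpn-3, rpn-5, rpn-9, rpn-11, rpn-13 and cdc-48.1. Of the 15 pooled regions, 9 had a region of each replicate within 150 bp of the summit, beside 54.5% of the 2763 pooled regions near any protein-coding start. All 4 IDR regions were among the 9.

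**Figure D4:**
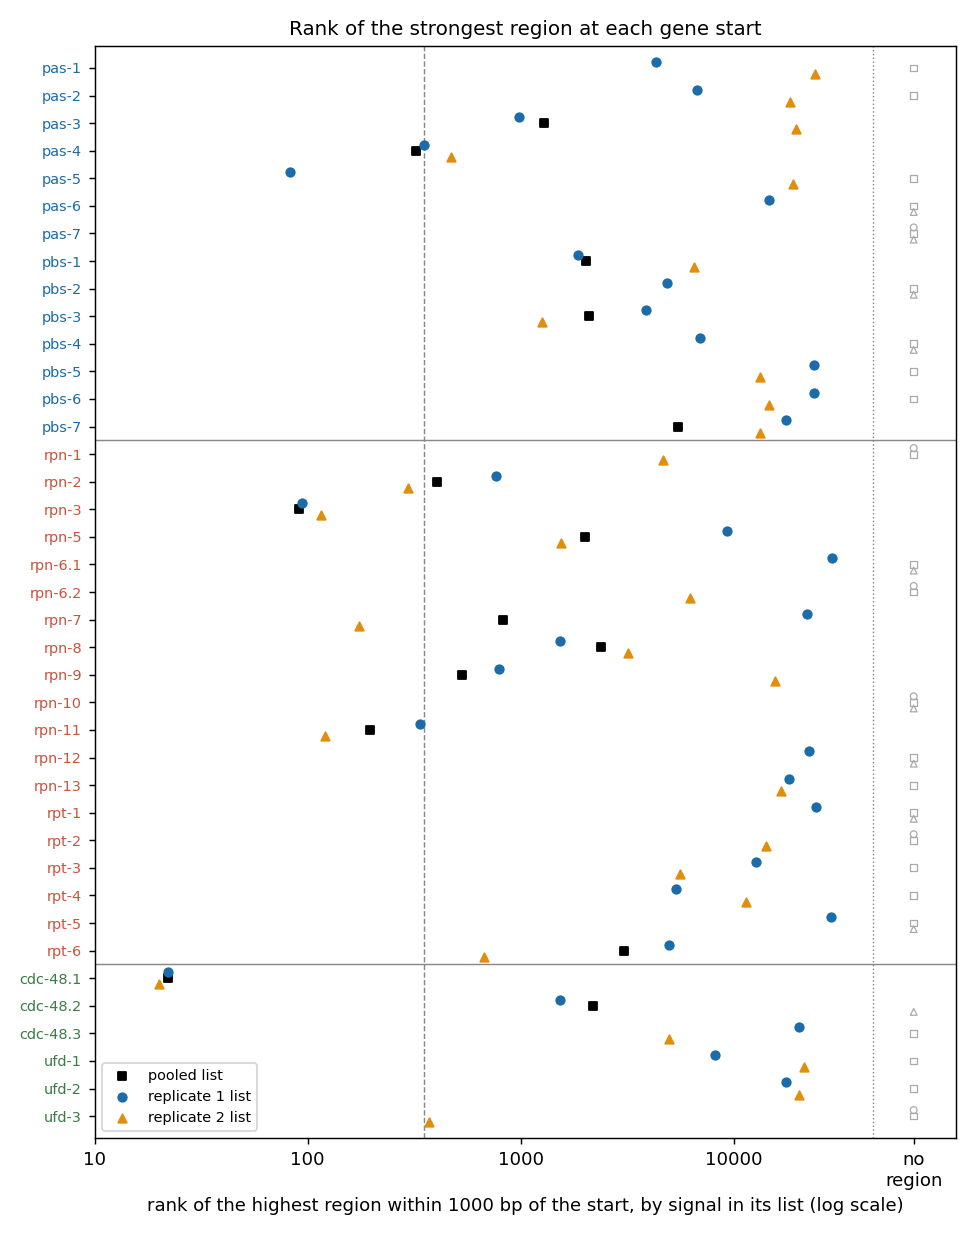
Rank of the highest region within 1000 bp of the start of each of the 39 members (x axis, log scale, with rank 1 the highest signal in a list), for the pooled list and each replicate list. Open grey symbols at the right mark lists with no region, and the dashed line marks rank 350, the length of the IDR list. The replicate ranks of cdc-48.1 and rpn-3 lie close together, while those of rpn-7, rpn-9 and pas-5 lie far apart.

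Promoter sequence was searched from 250 bp before to 50 bp after each start, on both strands, for 7 motifs, none of which contains another. ATGACA, part of the sites bound by SKN-1, a stress factor known to control proteasome genes in this organism, was present in 14 of 39 members (35.9%) and in 16.3% of all promoters. It was found in 5 of 14 core particle, 7 of 19 regulatory particle and 2 of 6 CDC-48 genes. It occurred in 5 of the 15 members with a pooled region (cdc-48.1, pbs-1, rpn-2, rpn-7 and rpn-11) and in 9 of the 24 without one, beside 14.7% and 16.6% of all genes with and without a pooled region. These counts are of promoter windows and not of the pooled regions. The pooled summits of pbs-1 (−396 bp), rpn-2 (−405 bp) and rpn-7 (−462 bp) lay outside the promoter window. Within 100 bp of the pooled summit, counted separately, ATGACA was present in 4 of 15 members' regions (26.7%), beside 8.43% of all pooled regions near protein-coding starts. No test of these shares was made. Binding of SKN-1 was not measured here.

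The other motifs stood nearer to or below the level of all promoters. GAGAGAG was in no member, beside 6.78% of all promoters. CCGCCC was in 2 members (5.13%, beside 7.83%), namely pbs-3 and rpn-12. The nuclear receptor hexamer AGGTCA was likewise in 2 (5.13%, beside 8.27%), rpn-11 and rpn-6.2. The match in rpn-11, read there on the other strand as TGACCT, is in capitals in its sequence above. It was not within 100 bp of the pooled summit. Within that distance AGGTCA was in 0 of the 15 pooled regions at members, beside 4.38% of all pooled regions near starts. The GATA factor type TGATAA was in 11 members (28.2%, beside 30.2%), the heat shock type TTCNNGAA in 10 (25.6%, beside 18.9%) and the E-box CACGTG in 3 (7.69%, beside 5.82%). The heat shock type was present in rpn-3, where it is the stretch in capitals, and elsewhere in the cdc-48.1 promoter.

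The summit windows of cdc-48.1 and rpn-9 share the run CGCGCCCTA, at bases 45 and 48 of the windows shown. This run was chosen after the sequences had been seen. It occurred within 100 bp of the summit in 2 of the 15 pooled regions at members and in 6 of the 2763 pooled regions near any protein-coding start (0.217%), these 2 included. In promoter windows it was in 12 of 19973 genes, of which 1 was a member, cdc-48.1. The median GC content of the promoter windows was 34.3% both for members and for all genes.

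Other genes of ubiquitin-dependent degradation were taken from lists of their own. Of 26 ubiquitin and conjugating enzyme genes, 2 (7.69%) were near an IDR region and 8 (30.8%) near a pooled one, beside 1.72% and 15.8% of all genes. The IDR pair was ubq-2, which encodes ubiquitin fused to a ribosomal protein (pooled signal 52.01, rank 221), and the conjugating enzyme gene ubc-6 (54.4, rank 199). Of 13 proteasome regulator and shuttle genes, a list that also held ubiquitin ligase genes, 2 (15.4%) were near an IDR region and 6 (46.2%) near a pooled one. The same shares of all genes apply here. These 2 were the shuttle gene ubql-1 (48.9, rank 250) and the ubiquitin ligase gene eel-1 (42.7, rank 340). At ubc-6 and ubql-1 the highest region of replicate 1 ranked 160 and 243, and that of replicate 2 ranked 1836 and 2025. The highest regions of the replicates were not always at one place. At ubq-2 they lay at −509 bp (rank 205 in replicate 1) and 753 bp (rank 893 in replicate 2). At eel-1 they lay at −368 bp (rank 379) and −655 bp (rank 608).

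None of the 16 CDC-48 cofactor and ER degradation genes was near an IDR region, and 2 (12.5%) were near a pooled one, beside the 15.8% of all genes. The 7 COP9 signalosome genes, whose complex resembles the lid, had 0 and 2. For comparison, 25 of 78 ribosomal protein genes (32.1%) were near an IDR region and 61 (78.2%) near a pooled one, and 2 and 6 of the 8 cct chaperonin genes were. The proteasome and CDC-48 genes, at 10.3% and 38.5%, lay between these families and the whole genome, and the differences were not tested.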

How the data were processed

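The authors deposited region lists of ChIP-seq in the narrowPeak layout, in ce10 and ce11. Per the notes that accompany the deposited files, regions were called on each library and on both together against a control alignment, and the IDR list was made from the pooled and replicate lists. The caller, its version, the aligner, the thresholds and the strain of the control were not stated in any source used here. The authors deposited a signal (enrichment over control) and a −log10 q-value per region. The −log10 q-value was not used to select regions or for any count, and is given only for pooled regions at members. The ce10 lists were not used.

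Gene models came from Ensembl release 115 (WBcel235, which is ce11), and bases from the RefSeq genome of that build. All 66892 regions ended within their chromosomes. For each gene, the region with the highest signal within 1000 bp was taken. Counts of members stand beside the percent of all protein-coding genes, and no test was made, since there is 1 group and genes are not replicates. Alternatives are given in the closing section. The procedure for finding regions near starts was checked on planted regions. The members and lists were chosen with earlier results of these data known. Genes named were those with an IDR or pooled region, those sharing their summits, those with no replicate region, those just beyond the limit, the best ranked per class without a pooled region, and list genes near an IDR region. The other members are given with their ranks only so that each is accounted for, outside that rule. 1 symbol of the lists, csn-8, was not matched. The libraries are biological replicates per the labels, and their depth is unknown. Python 3.11.15 with NumPy 2.4.6, pandas 2.3.3, SciPy 1.17.1 and matplotlib 3.10.9 was used.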

Additional observations from a re-analysis of the deposited data

How the results depend on the processing

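Of 81 values recomputed under alternatives, 62 stayed within 1.5 times the reported count (for motif shares, within its exact binomial 95% interval) and 19 did not. This rule compares counts and not shares of all genes. The interval treats members as independent, so it served only as a yardstick and not as a test. For motifs the alternative was the summit windows of 15 pooled regions in place of the promoters of 39 members. Those are different quantities, so the rule does not show how stable a motif share is. At 2000 bp, 34 members had a region in both replicate lists, beside 54.5% of all genes. With 1 replicate left out, that count was of the remaining list alone (29 and 33 members, beside 49.3% and 50.3% of all genes), so it could not fall below 25. At 500 bp, pooled regions were near 3 core particle and 1 CDC-48 members (10.1% of all genes), and 15 members had a region in both replicate lists (13.7% of all genes). At 2000 bp, 3 core particle members were near an IDR region (pas-5 and pbs-2 in addition, 2.33% of all genes) and 9 near a pooled one (25% of all genes). With the closest start only, 9 members were near a pooled region (13% of all genes), of which 2 were core particle and 1 CDC-48, while the 4 near an IDR region were unchanged. Counting a region by its interval gave 2 core particle members near an IDR region (1.89% of all genes). With each list cut at its median signal, 2 members were near an IDR region (cdc-48.1 and rpn-3, 0.886% of all genes), with 0 core particle and 1 regulatory particle, and 12 members had a region in both replicate lists (12.5% of all genes). With 1 replicate left out and as many of the other's highest regions in place of the list, members near an IDR region numbered 5 without replicate 1 (1.54% of all genes) and 4 without replicate 2 (1.65%). The genes changed: pas-4 was lost in both cases, pas-5 was in the second, rpn-2 and rpn-7 were in the first, and cdc-48.1, rpn-3 and rpn-11 were in both. For core particle these counts ranged from 0 to 1 (near a pooled region, 3 to 7) and for regulatory particle from 2 to 4. Within 100 bp of the summit TGATAA was in 2 of the 15 pooled regions at members (13.3%, beside 15.5% of all pooled regions near starts). In the same 15 regions AGGTCA and CACGTG were at 0% (4.38% and 3.15%). Matching replicates within 75 or 300 bp of the pooled summit, distances chosen after the data were seen, gave 8 and 12 of 15. The cause of these changes was not tested beyond what each alternative leaves out.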
